A study of Homo sapiens with 20 samples.

Results

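MicroRNA host transcripts are long RNAs that carry microRNA hairpins in their introns or exons. They were taken here as all genes whose GENCODE symbol starts with MIR and ends with HG and that had a transcript in the deposited abundance tables. Of 84 such genes in the annotation, 81 were present, with 439 transcripts, out of 57087 genes in all. By biotype, 80 were long non-coding RNAs, and MIR3171HG was a transcribed processed pseudogene. In 62 of them, the RefSeq records used here place at least 1 hairpin on the same strand inside the gene. For the other 19 these records hold none, which is a gap in the records for most of them. GENCODE places hairpins in hosts among the 19, such as MIR663A in MIR663AHG and MIR3936 in MIR3936HG. Only MIR670HG and MIR7515HG had no hairpin in either source. Counts were high enough for a test in 64 host genes in chromatin RNA and in 24 in mRNA-seq, all of which were among the 64. The other 17 host genes were tested in neither and never exceeded 15 estimated counts in a chromatin RNA sample.

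Host transcripts are made by RNA polymerase II. Drosha, with its partner DGCR8, cuts the hairpin out of the host RNA while it is still in the nucleus, often while the RNA is still on the chromatin. Dicer then cuts the exported hairpin into a short duplex, and Argonaute proteins such as Ago2 keep a strand of it as the mature microRNA, whose bases 2 to 8, the seed, pair with target RNAs.

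All samples came from human embryonic kidney 293 cells, an adenovirus-transformed line with neuron-like gene expression. For mRNA-seq, 3 wt samples (labelled HEK293T) and 3 shDicer samples (a HEK293 2B line with an shRNA against DICER1) were all given doxycycline at 3 µg/ml for 7 days. For chromatin RNA-seq (chrRNA-seq), which measures RNA that stays with the chromatin pellet, there were 2 samples each of wt, shDicer, shAgo2 and shDrosha, labelled HEK293. The shDicer and shAgo2 cells were stable lines in which doxycycline at 3 µg/ml for 72 h induced an shRNA, while the shDrosha cells were transfected with shRNA plasmids. The control cells of neither experiment carried a scrambled shRNA, so the effect of a line and that of its knockdown cannot be told apart. For chromatin RNA the labels give doxycycline for shDicer and shAgo2 and none for wt or shDrosha, so the drug cannot be told apart from them either. The labels do not say that replicates were separate cultures, so p-values measure only the spread between these samples. In bulk RNA, fewer cells with a transcript and less of it per cell cannot be told apart.

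The mature microRNAs of the hosts that the results turn on are shown here because their seeds group the hosts. Sequences are from RefSeq (GRCh38.p14), 5′ to 3′, with the seed in capitals. MIR17HG lies at chr13:91347686-91397592 on the plus strand and holds 6 hairpins, which are exonic in 2 of its 3 transcripts. The 6 strands shown fall into 4 seed groups.
miR-17-5p: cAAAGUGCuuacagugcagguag
miR-20a-5p: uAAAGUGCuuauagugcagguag
miR-18a-5p: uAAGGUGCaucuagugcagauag
miR-19a-3p: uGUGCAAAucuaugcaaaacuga
miR-19b-3p: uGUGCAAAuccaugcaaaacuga
miR-92a-3p: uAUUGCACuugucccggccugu

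MIR222HG lies at chrX:45745210-45770274 on the minus strand. Its 2 hairpins overlap none of the exons of its transcripts and share a seed. MIR34AHG lies at chr1:9148011-9198906 on the minus strand, and its hairpin is exonic in 1 of its 4 transcripts.
miR-221-3p: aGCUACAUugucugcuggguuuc
miR-222-3p: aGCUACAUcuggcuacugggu
miR-34a-5p: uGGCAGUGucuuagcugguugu

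The let-7 seed, GAGGUAG, was found in 7 mature microRNAs of 6 hosts, namely MIR99AHG, MIR100HG, MIR4500HG, MIRLET7A1HG, MIRLET7BHG and MIRLET7IHG. MIR99AHG (chr21:15928296-16646364, plus strand) holds miR-99a, let-7c and MIR125B2. MIRLET7A1HG (chr9:94166258-94200905, plus strand) holds let-7a-1, let-7f-1 and let-7d. MIRLET7IHG (chr12:62602752-62622213, plus strand) holds let-7i. None of these hairpins lies in an exon of a host transcript.
let-7c-5p (MIR99AHG): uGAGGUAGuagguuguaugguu
let-7a-5p (MIRLET7A1HG): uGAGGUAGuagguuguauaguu
let-7f-5p (MIRLET7A1HG): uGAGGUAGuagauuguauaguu
let-7d-5p (MIRLET7A1HG): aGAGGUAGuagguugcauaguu
let-7i-5p (MIRLET7IHG): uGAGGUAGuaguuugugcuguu
miR-99a-5p (MIR99AHG): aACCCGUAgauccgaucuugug

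MIR181A1HG (chr1:198777861-198937471, minus strand) and MIR181A2HG (chr9:124658412-124698635, plus strand) share the miR-181 seed, again with hairpins outside the exons of their transcripts. MIR181A2HG also holds the MIR181B2 hairpin, for which the RefSeq records used here gave no mature sequence. The label of miR-181b-5p below thus names only the host found in those records.
miR-181a-5p (both hosts): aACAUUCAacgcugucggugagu
miR-181b-5p (MIR181A1HG): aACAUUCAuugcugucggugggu

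The mRNA-seq libraries held 10216430 to 17215978 estimated counts and the chrRNA-seq libraries 17484067 to 21553760. Values are given as normalised CPM, the count scaled to a common library size. On this scale 3 counts stand for 0.179 to 0.307 CPM in the mRNA-seq libraries and for at most 0.189 CPM in those of chrRNA-seq. In mRNA-seq, DICER1 fell from a mean of 247 CPM in wt to 87.8 CPM in shDicer. In chrRNA-seq, DICER1 was at 122 CPM in wt and 108 CPM in shDicer (log2 fold change -0.18, adjusted p = 0.166), and AGO2 fell from 247 to 161 CPM in shAgo2. DICER1 rose in shAgo2 chromatin RNA, to a mean of 209 CPM (log2 fold change 0.78 ± 0.09, adjusted p = 3.59e-05). DROSHA was not lower in the libraries labelled shDrosha, at 157 CPM against 150 CPM in wt (log2 fold change 0.07, adjusted p = 0.697). Its knockdown is thus not seen in these chromatin RNA data, and the libraries were kept as labelled. Outside these libraries, the study measured steady-state Drosha RNA by qRT-PCR in its chrRNA-seq samples. It also describes the Drosha knockdown as successful by western blot. The markers of the line moved in both directions. NEFL, a neurofilament gene, was at 13.9 to 18.3 CPM in wt and at 297 to 756 CPM in shDicer mRNA-seq, and in chrRNA-seq at 10.9 to 13.1 CPM in wt, 89.3 to 196 CPM in shDicer and shAgo2, and 11.1 to 12.2 CPM in the libraries labelled shDrosha. NEFM, another neurofilament gene, went the other way, at 6.05 to 6.45 CPM in wt and 0.238 to 0.548 CPM in shDicer mRNA-seq, and in chrRNA-seq at 24.1 to 24.8 CPM in wt, 0.655 to 2.70 CPM in shDicer and shAgo2, and 11.6 and 11.7 CPM in the libraries labelled shDrosha. INA, an intermediate filament gene of neurons, was at 27.6 to 29.8 CPM in wt chrRNA-seq and at 4.9999 to 10.2 CPM in shDicer and shAgo2. VIM, which encodes vimentin, was at 511 to 573 CPM in wt chrRNA-seq and at 158 to 254 CPM in shDicer and shAgo2, with overlapping groups in mRNA-seq. INA was at 15.5 to 17.6 CPM and VIM at 262 to 359 CPM in the libraries labelled shDrosha, also below wt. PAX2, a kidney marker, was between 0.0757 and 0.267 CPM in mRNA-seq, and in chrRNA-seq at 10.4 to 11.2 CPM in wt, 19.4 to 22.0 CPM in shDicer, 12.8 to 15.8 CPM in shAgo2 and 11.4 to 15.8 CPM in the libraries labelled shDrosha. The T cell marker CD3E had no count in any mRNA-seq library and reached 0.109 CPM in chrRNA-seq. In chrRNA-seq, PTPRC was at 1.21 to 2.17 CPM, DCN at 6.19 to 8.63 CPM and PECAM1 at 14.8 to 17.5 CPM. COL1A1 reached 29.3 CPM there, ALB 0.382 CPM and APOA1 0.737 CPM. LIN28B was at 192 to 202 CPM in wt and 213 to 242 CPM in shDicer mRNA-seq. In chrRNA-seq it was at 25.4 and 26.7 CPM in wt, and at 44.9989 to 50.7 CPM in shDicer and shAgo2. In the libraries labelled shDrosha it was at 35.6 and 30.5 CPM. The part that these differences between lines play in the host transcripts was not tested.

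Host transcripts took up more of the chromatin RNA than of the mRNA-seq libraries. Their share of the counts was 1.71 to 2.52% in chrRNA-seq, against 0.0135 to 0.0395% in mRNA-seq. Most of this was MIR663AHG, which shares 8.94% of its 31-base sequences with other genes and took between 91.5 and 94.8% of the host counts in every chrRNA-seq sample. Levels between genes were compared as TPM, which is corrected for transcript length. In wt mRNA-seq the order was led by MIR17HG at 54.3 ± 6.71 TPM (SD, n = 3), MIR663AHG at 33.9 ± 10.5 TPM and MIR222HG at 17.2 ± 3.37 TPM. MIR4435-2HG followed at 6.54 ± 0.636 TPM and MIR99AHG at 4.41 ± 0.455 TPM. In wt chrRNA-seq, MIR663AHG stood at 31410 ± 1184 TPM (SD, n = 2), far above MIR17HG at 65.8 ± 0.347 TPM. MIR646HG at 42.3 ± 2.02 TPM and MIRLET7A1HG at 39.2 ± 1.53 TPM differed by about their spread, and MIR503HG followed at 34.7 ± 0.136 TPM. The place of MIRLET7A1HG rests on 1 short transcript, with 205 31-base sequences and at most 92 counts in a sample. Of the 81 hosts, 58 had a TPM above 0 in wt of both preparations, and all 58 had the higher mean in chromatin RNA. A further 14 were at 0 in the wt mRNA-seq samples and above 0 in wt chromatin RNA, 8 were at 0 in both, and MIR1302-2HG, which shares 98.2% of its 31-base sequences with other genes, was above 0 in mRNA-seq alone. TPM is a share of each library, so this comparison of preparations carries no test.

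**Figure D1:**
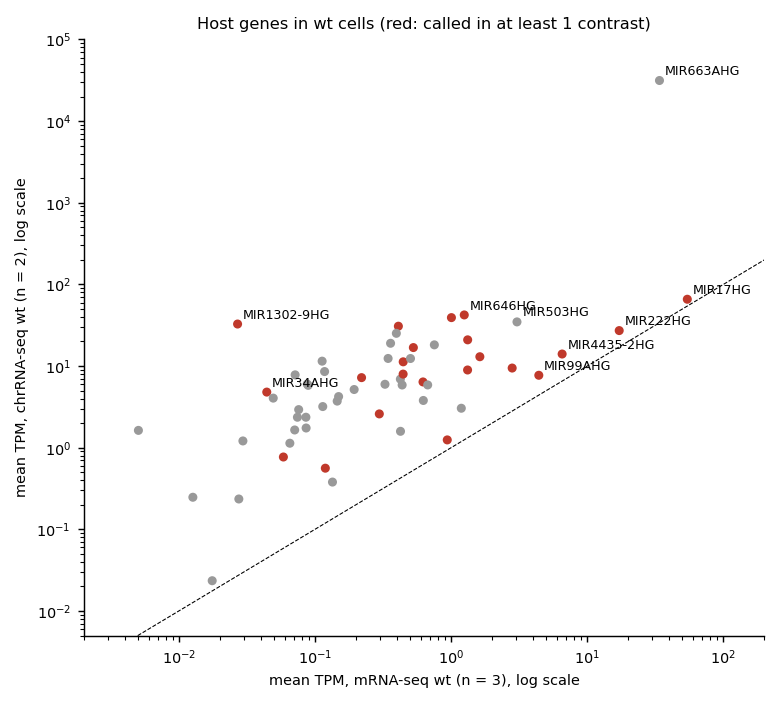
Mean TPM of 58 host genes in the 3 wt mRNA-seq samples (horizontal, log scale) and the 2 wt chrRNA-seq samples (vertical, log scale), with the line of equal values. Every point lies above the line, and MIR663AHG stands apart at 31410 TPM in chromatin RNA.

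Across the comparisons with wt, host genes moved in both directions. The question asked of each was which host RNAs differ when Dicer, Ago2 or Drosha is targeted. In mRNA-seq, 3 host genes rose and 5 fell in shDicer out of 24 tested, where 15.6% of all genes rose and 14.2% fell (edgeR quasi-likelihood test, adjusted p under 0.001). The 8 called hosts were 33.3% of those tested, against 29.8% of all genes. In shDicer chromatin RNA, 9 of 64 rose and 10 fell, where 11% of all genes rose and 10.5% fell (adjusted p under 0.005), so that 29.7% of hosts were called against 21.6% of all genes. In shAgo2 chromatin RNA, 6 rose and 11 fell, where 12.5% of all genes rose and 12.1% fell, so that 26.6% of hosts were called against 24.5% of all genes. In the libraries labelled shDrosha, in which DROSHA was not lower, 4 hosts rose and 1 fell, where 1.19% of all genes rose and 2.18% fell (adjusted p under 0.05), so that 7.81% of hosts were called against 3.38% of all genes.

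The median host moved little. Its log2 fold change was -0.06 in shDicer mRNA-seq, -0.05 in shDicer chromatin RNA, -0.09 in shAgo2 chromatin RNA and 0.03 in the libraries labelled shDrosha, where the median over all genes tested was between 0.00 and 0.01. In chromatin RNA, wt and shDicer samples did not overlap for 19 hosts that were higher and 26 that were lower in shDicer, where 34.8% of all genes were higher without overlap and 33.8% lower. For the libraries labelled shDrosha these numbers were 21 and 6, where 24.5% of all genes were higher without overlap and 24.6% lower. In total, 24 hosts passed the test in at least 1 of the 4 comparisons with wt, and 16 of them in at least 2. The matching shares of all genes were not computed, so these 2 numbers say nothing particular to hosts. The chromatin RNA comparisons share their wt samples.

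**Figure D2:**
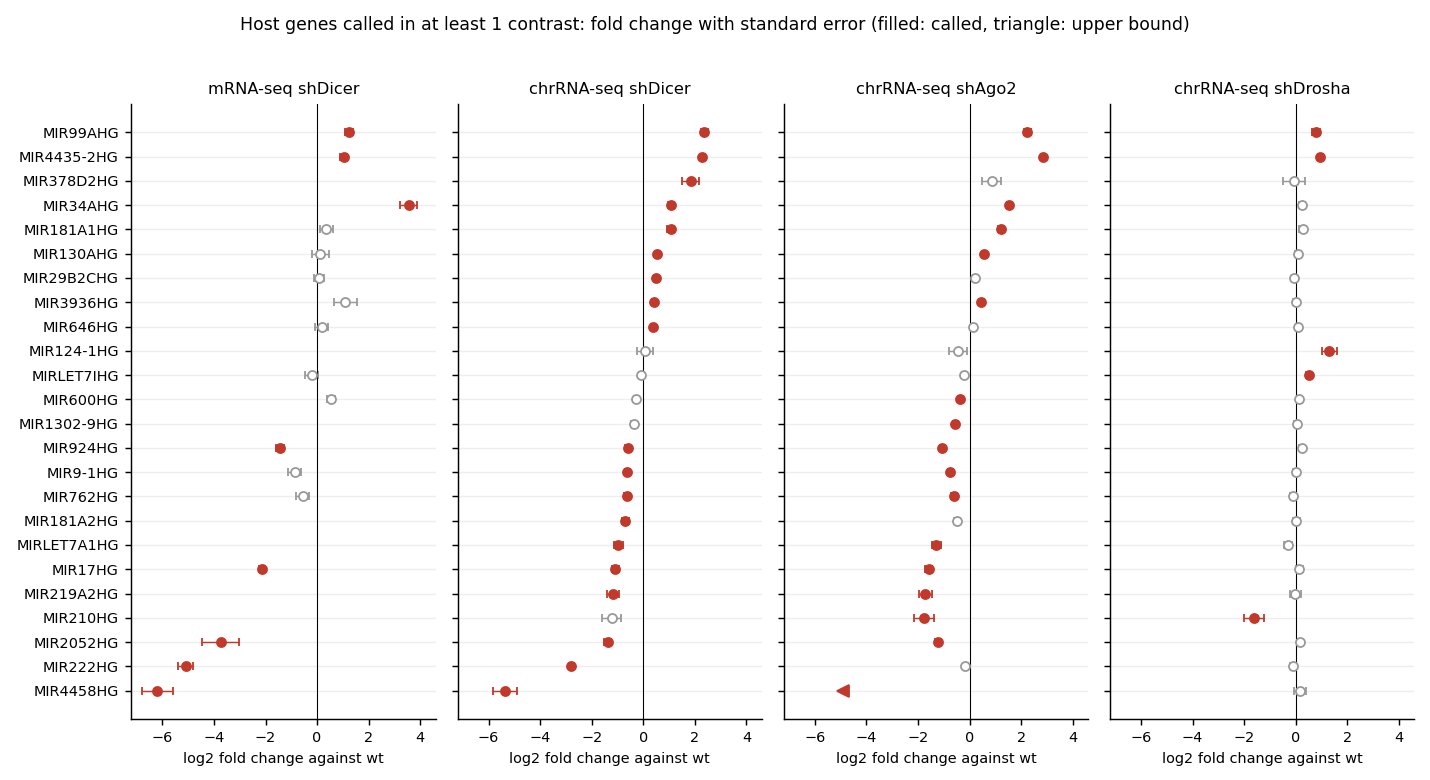
Log2 fold change against wt, with its SE, of the 24 host genes that passed the test in at least 1 comparison, for shDicer mRNA-seq and for shDicer, shAgo2 and shDrosha chrRNA-seq. Filled points passed the test and the triangle is an upper bound for MIR4458HG in shAgo2, where it had no counts, and MIR4435-2HG and MIR99AHG are filled and to the right of 0 in all 4 comparisons.

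MIR17HG, the host of the miR-17-92 cluster, which promotes proliferation and is switched on by MYC, fell with the targeting of Dicer and of Ago2. In mRNA-seq it was at 174, 179 and 227 CPM in wt and at 40.2, 43.0 and 49.4 CPM in shDicer. In chromatin RNA it was at 204 and 226 CPM in wt, 98.0 and 105 CPM in shDicer, 70.7 and 73.4 CPM in shAgo2, and 278 and 198 CPM in the libraries labelled shDrosha. The shDicer and shAgo2 samples lay below all wt samples, and those labelled shDrosha spanned the wt range. The log2 fold change was -2.12 ± 0.12 (SE, adjusted p = 1.5e-07) in shDicer mRNA-seq, -1.08 ± 0.13 (adjusted p = 4.86e-05) in shDicer chromatin RNA and -1.58 ± 0.13 (adjusted p = 2.34e-06) in shAgo2 chromatin RNA. In the libraries labelled shDrosha it was 0.14 ± 0.13 (adjusted p = 0.597). The calls of MIR17HG held under all alternatives tried. Most of its counts, between 75.8 and 85.1% over all samples, went to transcript ENST00000582141, whose exons hold the 6 hairpins. The share of transcripts with exonic hairpins stayed between 76.6 and 86.1% in every sample, so both kinds of transcript were lower. The hairpins themselves, which are entries of their own in the index, had no count in any sample. Since they lie inside exons of ENST00000582141, reads from them can be assigned to that transcript. The empty entries thus do not show that hairpin RNA was absent. Among the 50 nearest tested genes, the median log2 fold change was -0.94 in mRNA-seq, and -0.11 and -0.08 in shDicer and shAgo2 chromatin RNA. Over the alternatives, the mRNA-seq value of MIR17HG lay between -2.21 and -1.19.

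MIR222HG, the host of miR-221 and miR-222, which repress the cell cycle inhibitor p27, was lower where Dicer was targeted and not called where Ago2 was. It was at 42.6, 44.8 and 58.6 CPM in wt mRNA-seq and at 1.18, 0.605 and 2.27 CPM in shDicer mRNA-seq. Chromatin RNA gave 69.2 and 72.1 CPM in wt, 9.11 and 11.3 CPM in shDicer, 60.1 and 66.1 CPM in shAgo2, and 67.7 and 62.7 CPM in the libraries labelled shDrosha. The shDicer samples were far below wt in both preparations, while the shAgo2 samples and the libraries labelled shDrosha lay just under wt. The log2 fold change was -5.10 ± 0.28 (adjusted p = 1.65e-07) in shDicer mRNA-seq and -2.79 ± 0.11 (adjusted p = 5.19e-09) in shDicer chromatin RNA. It was -0.16 ± 0.09 (adjusted p = 0.178) in shAgo2 and -0.12 ± 0.09 (adjusted p = 0.546) in the libraries labelled shDrosha. The difference between shDicer and shAgo2 was itself tested and came to -2.62 ± 0.11 (adjusted p = 9.91e-08), and all 3 calls held under all alternatives. The MIR221 hairpin entry had 13 and 13 counts in wt, 0 and 0 in shDicer, 15 and 9 in shAgo2, and 11 and 9 in the libraries labelled shDrosha, and so was lowest in shDicer too. The neighbouring genes did not share the drop, and their median was 0.17 in mRNA-seq and 0.22 in chromatin RNA.

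MIR34AHG, the host of miR-34a, which p53 induces and which restrains the cell cycle, rose with the targeting of Dicer and Ago2. In mRNA-seq it was at 0.324, 0.267 and 0.512 CPM in wt, near the level of 3 counts, and at 4.31, 3.71 and 4.95 CPM in shDicer. Chromatin RNA gave 18.6 and 19.7 CPM in wt, 44 and 36.5 CPM in shDicer, 54.0 and 58.0 CPM in shAgo2, and 22.6 and 22.5 CPM in the libraries labelled shDrosha. None of these groups overlapped with wt. The log2 fold change was 3.55 ± 0.32 (adjusted p = 4.97e-06) in mRNA-seq, 1.07 ± 0.10 (adjusted p = 9.26e-06) in shDicer chromatin RNA and 1.55 ± 0.10 (adjusted p = 3.52e-07) in shAgo2 chromatin RNA, and these calls held under all alternatives. In the libraries labelled shDrosha it was 0.24 ± 0.11 (adjusted p = 0.266). The transcript that carries the hairpin, ENST00000635687, took between 90.2 and 93.9% of the gene's counts in wt chromatin RNA, 80.2% in both shDicer samples and between 76.9 and 80.1% in shAgo2. Another transcript, ENST00000635405, went from 17.97 and 28.7 counts in wt to between 100.1 and 139 counts in shDicer and between 186 and 200 counts in shAgo2. The genes around MIR34AHG were also higher, with a neighbour median of 0.71 in mRNA-seq, 0.50 in shDicer and 0.51 in shAgo2 chromatin RNA. Over the alternatives, the lowest log2 fold change of MIR34AHG was 2.85 in mRNA-seq, 0.57 in shDicer and 1.04 in shAgo2 chromatin RNA.

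**Figure D3:**
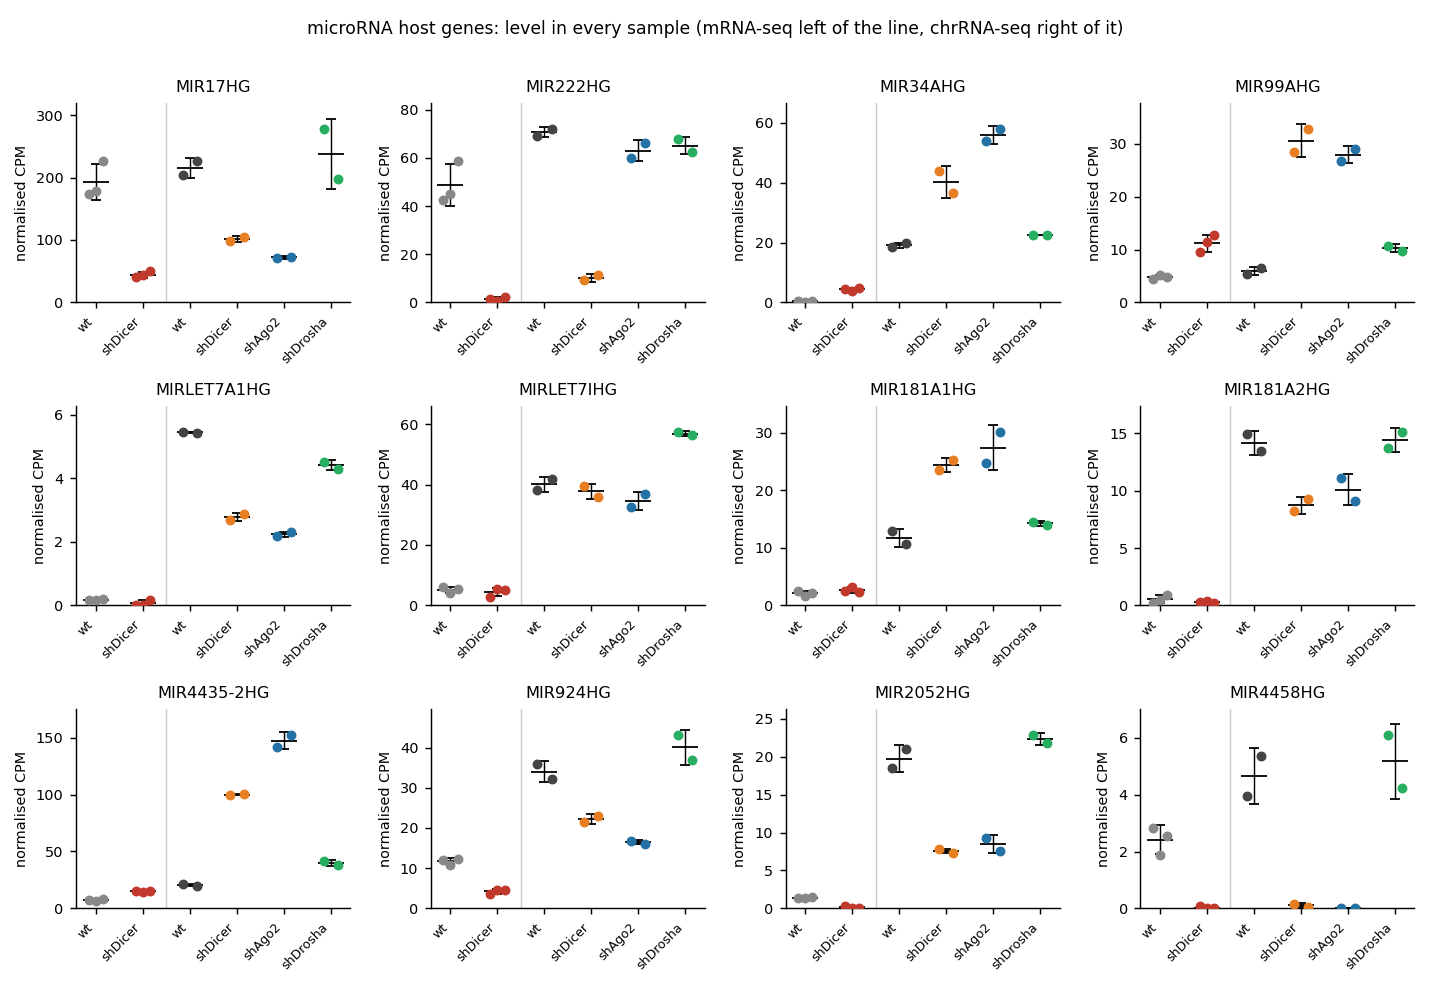
Normalised CPM of 12 host genes in every mRNA-seq and chrRNA-seq sample (points), with the mean and SD of each group, on axes that differ between panels. MIR222HG is low in shDicer alone, while MIR17HG is low and MIR4435-2HG high in both shDicer and shAgo2.

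Among the hosts with a let-7 seed, MIR99AHG rose while MIRLET7A1HG fell. The let-7 family holds back growth and represses LIN28B and HMGA2. MIR99AHG was at 4.46, 5.16 and 4.71 CPM in wt mRNA-seq and at 9.56, 11.3 and 12.8 CPM in shDicer. Its chromatin RNA level was 5.39 and 6.50 CPM in wt, 28.4 and 32.8 CPM in shDicer, 26.8 and 29.1 CPM in shAgo2, and 10.7 and 9.69 CPM in the libraries labelled shDrosha. All shDicer and shAgo2 samples, and the libraries labelled shDrosha, lay above all wt samples of their preparation. On the log2 scale the change was 1.24 ± 0.16 (adjusted p = 7.89e-05) in mRNA-seq, 2.37 ± 0.13 (adjusted p = 8.97e-08) in shDicer and 2.23 ± 0.13 (adjusted p = 1.27e-07) in shAgo2 chromatin RNA, and these calls held under all alternatives. In the libraries labelled shDrosha, in which DROSHA was not lower, it was 0.78 ± 0.14 (adjusted p = 0.0154). That call was lost when either wt library or shDrosha 1 was left out (log2 fold change between 0.65 and 0.92). It was also lost with counts scaled from TPM (adjusted p = 0.161) and with the neighbour median taken off (adjusted p = 0.0543). The let-7c hairpin entry had no count in wt chromatin RNA, 10 and 9 counts in shDicer, 3 and 4 in shAgo2, and 3 and 3 in the libraries labelled shDrosha.

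MIRLET7A1HG had 9 counts in all in the 6 mRNA-seq samples and was tested in chromatin RNA alone. There it was at 5.45 and 5.43 CPM in wt, 2.68 and 2.86 CPM in shDicer, 2.16 and 2.29 CPM in shAgo2, and 4.51 and 4.30 CPM in the libraries labelled shDrosha. The shDicer and shAgo2 samples and the libraries labelled shDrosha were all below wt, the shDicer and shAgo2 samples the most. The log2 fold change was -0.97 ± 0.16 (adjusted p = 0.000612) in shDicer, -1.29 ± 0.17 (adjusted p = 8.25e-05) in shAgo2 and -0.31 ± 0.15 (adjusted p = 0.312) in the libraries labelled shDrosha. The shDicer call was lost when either wt library was left out (adjusted p of 0.00554 and 0.00633) and with DESeq2 (adjusted p = 0.0153). The median over its 50 neighbours was -0.71 for shDicer and -0.82 for shAgo2, and with that median taken off MIRLET7A1HG came to -0.26 (adjusted p = 0.252) and -0.47 (adjusted p = 0.0533). The let-7d hairpin entry was at 43 and 42 counts in wt, 13 and 19 in shDicer, 14 and 18 in shAgo2, and 43 and 42 in the libraries labelled shDrosha. The let-7f-1 entry was at 14 and 13 counts in wt, 7 and 7 in shDicer, 12 and 6 in shAgo2, and 35 and 20 in the libraries labelled shDrosha. The let-7a-1 entry was at 7 and 10 counts in wt, 3 and 4 in shDicer, 4 and 8 in shAgo2, and 19 and 12 in the libraries labelled shDrosha. All 3 entries were thus lower than wt in shDicer, let-7d and let-7f-1 were so in shAgo2, where let-7a-1 overlapped with wt, and let-7f-1 and let-7a-1 were higher in the libraries labelled shDrosha, without a test.

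MIRLET7IHG was the let-7 host that passed the test in the libraries labelled shDrosha without doing so elsewhere. On chromatin the level was 38.2 and 41.9 CPM in wt, 39.4 and 36.0 CPM in shDicer, 32.6 and 36.8 CPM in shAgo2, and 57.4 and 56.2 CPM in the libraries labelled shDrosha. Those last libraries lay above all others. The log2 fold change there was 0.51 ± 0.09 (adjusted p = 0.0128). That call was lost when either wt library was left out (log2 fold change between 0.44 and 0.57) and with counts scaled from TPM (adjusted p = 0.0549). In shDicer it was -0.09 ± 0.09 (adjusted p = 0.497) and in shAgo2 -0.21 ± 0.09 (adjusted p = 0.0893). Of the other let-7 hosts, MIRLET7BHG ranged from 38.8 to 52.6 CPM, MIR100HG from 19.1 to 23.1 CPM and MIR4500HG from 3.42 to 5.02 CPM over the chrRNA-seq samples, and none of them passed a test.

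Of the pair of miR-181 hosts, MIR181A1HG rose and MIR181A2HG fell in shDicer, the latter in a region that was lower as a whole. The miR-181 family is known from lymphocyte development. In chromatin RNA, MIR181A1HG was at 12.9 and 10.7 CPM in wt, 23.6 and 25.3 CPM in shDicer, 24.7 and 30.2 CPM in shAgo2, and 14.5 and 13.99 CPM in the libraries labelled shDrosha. It rose by 1.05 ± 0.13 on the log2 scale in shDicer (adjusted p = 5.1e-05) and by 1.22 ± 0.13 in shAgo2 (adjusted p = 1.29e-05), under all alternatives. Its transcripts did not move alike. ENST00000436880 was at 101 and 59.99 counts in wt, 289 and 322 in shDicer, and 337 and 394 in shAgo2, while ENST00000412162 was at 84.8 and 90.3 counts in wt, 90.0 and 82.4 in shDicer, and 86.3 and 89.3 in shAgo2. The MIR181B1 hairpin entry was at 1 and 3 counts in wt, 20 and 18 in shDicer, 16 and 15 in shAgo2, and 9 and 3 in the libraries labelled shDrosha.

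MIR181A2HG was at 14.9 and 13.4 CPM in wt, 8.21 and 9.27 CPM in shDicer, 11.1 and 9.12 CPM in shAgo2, and 13.7 and 15.1 CPM in the libraries labelled shDrosha. Both shDicer and both shAgo2 samples were below wt. It fell by 0.70 ± 0.13 on the log2 scale in shDicer (adjusted p = 0.00133), and in shAgo2 the value was -0.49 ± 0.13 (adjusted p = 0.00976). The shDicer call was lost when wt 1, wt 2 or shDicer 1 was left out (adjusted p between 0.00553 and 0.0196), and the 50 neighbours of the gene had a median of -0.45. With that median taken off, MIR181A2HG came to -0.25 (adjusted p = 0.183), and the call was lost. The hairpin entry MIR181A2 was at 80 and 62 counts in wt and at 58 and 61 in shDicer, and MIR181B2 at 59 and 66 in wt and at 43 and 54 in shDicer.

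The host transcript with the steepest rise in chromatin RNA after MIR99AHG in shDicer, and ahead of it in shAgo2, was MIR4435-2HG. It is a long non-coding RNA raised in many tumours, whose hairpin entry had no count. In mRNA-seq it was at 7.38, 6.32 and 8.29 CPM in wt and at 15.1, 14.7 and 15.0 CPM in shDicer. Chromatin RNA gave 21.0 and 19.9 CPM in wt, 99.6 and 100.3 CPM in shDicer, 142 and 152 CPM in shAgo2, and 41.6 and 37.9 CPM in the libraries labelled shDrosha. It was the only host to rise in all 4 comparisons besides MIR99AHG, and no sample of shDicer, of shAgo2 or labelled shDrosha overlapped with wt. On the log2 scale the change was 1.03 ± 0.14 (adjusted p = 8.85e-05) in mRNA-seq, 2.29 ± 0.09 (adjusted p = 4.01e-09) in shDicer chromatin RNA, 2.85 ± 0.09 (adjusted p = 8.32e-10) in shAgo2 and 0.96 ± 0.09 (adjusted p = 0.000946) in the libraries labelled shDrosha. The mRNA-seq call was lost when wt 1 was left out (adjusted p = 0.0011). In shDicer and shAgo2 chromatin RNA it became the second host by TPM, at 77.1 ± 4.595 and 124 ± 2.06 TPM, after MIR663AHG. It shares 17.8% of its 31-base sequences with other genes, mainly CYTOR, a near copy, so that reads may be divided between them. CYTOR itself rose by 1.30 ± 0.16 (adjusted p = 5.67e-05) in mRNA-seq, 2.68 ± 0.11 (adjusted p = 6.76e-09) in shDicer, 3.29 ± 0.11 (adjusted p = 1.25e-09) in shAgo2 and 1.13 ± 0.12 (adjusted p = 0.00168) in the libraries labelled shDrosha.

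MIR924HG, MIR2052HG and MIR4458HG fell in shDicer and shAgo2 and were not called in the libraries labelled shDrosha. MIR924HG was at 12.0, 10.9 and 12.2 CPM in wt mRNA-seq and at 3.53, 4.62 and 4.59 CPM in shDicer. On chromatin the level was 35.8 and 32.1 CPM in wt, 21.4 and 23.0 CPM in shDicer, 16.8 and 16.05 CPM in shAgo2, and 43.2 and 37.0 CPM in the libraries labelled shDrosha. The shDicer and shAgo2 samples lay below wt and the libraries labelled shDrosha above it. It fell by 1.45 ± 0.16 on the log2 scale (adjusted p = 2.07e-05) in mRNA-seq, 0.61 ± 0.10 (adjusted p = 0.000593) in shDicer and 1.05 ± 0.11 (adjusted p = 1.01e-05) in shAgo2. The shDicer chromatin call was lost when wt 1 or shDicer 1 was left out (adjusted p of 0.0119 and 0.00518).

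MIR2052HG was at 1.30, 1.42 and 1.43 CPM in wt mRNA-seq and at 0.313, 0 and 0 CPM in shDicer, which is 46 counts in wt and 4 in shDicer. In chromatin RNA it was at 18.5 and 21.0 CPM in wt, 7.79 and 7.36 CPM in shDicer, 9.30 and 7.59 CPM in shAgo2, and 22.9 and 21.8 CPM in the libraries labelled shDrosha. All samples of shDicer and shAgo2 were below wt. The mRNA-seq ratio was 14.7-fold lower, with an exact 95% counting interval of 5.38 to 56.4, and its call (log2 fold change -3.74 ± 0.71, adjusted p = 0.000995) was lost when any wt library, shDicer 2 or shDicer 3 was left out (adjusted p between 0.00399 and 0.00728) or the neighbour median taken off (adjusted p = 0.00286). In chromatin RNA the log2 fold change was -1.38 ± 0.13 (adjusted p = 5.58e-06) in shDicer and -1.22 ± 0.12 (adjusted p = 1.06e-05) in shAgo2, under all alternatives. Its transcript ENST00000523118 held 24.2 to 24.6% of the gene's counts in wt, 5.12 to 6.43% in shDicer, 3.03 to 8.04% in shAgo2 and 29.3 to 33.2% in the libraries labelled shDrosha.

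MIR4458HG was close to absent in shDicer and shAgo2. In mRNA-seq it was at 2.84, 1.87 and 2.56 CPM in wt and at 0.0784, 0 and 0 CPM in shDicer, or 81 counts against 1, a ratio of 104-fold with a counting interval of 18.1 to 4151. On chromatin the level was 3.97 and 5.37 CPM in wt, 0.158 and 0.0530 CPM in shDicer, 0 and 0 CPM in shAgo2, and 6.11 and 4.25 CPM in the libraries labelled shDrosha. Against 152 counts in wt there were 4 in shDicer, a ratio of 44.01-fold with a counting interval of 16.8 to 164, and none in shAgo2, which is at least 30-fold lower when set against 3 counts per library. The tests passed in all 3 comparisons (adjusted p = 1.05e-05 in mRNA-seq, 6.93e-06 in shDicer and 2.79e-06 in shAgo2 chromatin RNA) and under all alternatives. Its neighbours had medians of 0.23, 0.14 and 0.26.

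MIR219A2HG, whose microRNA is known from oligodendrocyte maturation, had no count in mRNA-seq. Its chromatin RNA level was 5.34 and 4.04 CPM in wt, 2.21 and 1.91 CPM in shDicer, 1.48 and 1.36 CPM in shAgo2, and 3.88 and 5.39 CPM in the libraries labelled shDrosha. The shDicer and shAgo2 samples lay below wt and the libraries labelled shDrosha overlapped with it. It fell by 1.19 ± 0.23 on the log2 scale in shDicer (adjusted p = 0.00164) and by 1.72 ± 0.25 in shAgo2 (adjusted p = 0.000157), where its neighbours had medians of -0.73 and -0.76. The shDicer call was lost when wt 1 or either shDicer library was left out (adjusted p between 0.00532 and 0.0257) and with DESeq2 (adjusted p = 0.00871). With the neighbour median taken off, MIR219A2HG came to -0.46 (adjusted p = 0.156) in shDicer and to -0.96 (adjusted p = 0.0109) in shAgo2, and both calls were lost.

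The hosts of miR-9 and miR-29 changed by less than 1 on the log2 scale. MIR9-1HG, a host of the neuronal miR-9, was at 43.8 and 39.8 CPM in wt chromatin RNA, 28.6 and 25.8 CPM in shDicer, 24.7 and 25.1 CPM in shAgo2, and 39.5 and 44.3 CPM in the libraries labelled shDrosha. Below both wt samples lay all 4 of shDicer and shAgo2. It fell by 0.62 ± 0.09 on the log2 scale in shDicer (adjusted p = 0.000292) and by 0.75 ± 0.10 in shAgo2 (adjusted p = 6.35e-05), and the shDicer call was lost without wt 1 (adjusted p = 0.00682). MIR29B2CHG hosts miR-29b and miR-29c, which repress collagen genes. It was at 136 and 127 CPM in wt, 184 and 186 CPM in shDicer, 146 and 156 CPM in shAgo2, and 129 and 124 CPM in the libraries labelled shDrosha. Both shDicer samples were above all others, and it rose by 0.49 ± 0.08 in shDicer (adjusted p = 0.000281), a call lost without wt 2 (adjusted p = 0.00873). Its neighbours had a median of 0.30 in shDicer, and with that taken off MIR29B2CHG came to 0.19 (adjusted p = 0.0684), which also ended the call. In shAgo2 the value was 0.20 ± 0.08 (adjusted p = 0.0531).

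MIR130AHG was at 33.3 and 35.4 CPM in wt chromatin RNA, 52.5 and 47.4 CPM in shDicer, 50.8 and 49.6 CPM in shAgo2, and 35.7 and 36.5 CPM in the libraries labelled shDrosha. In shDicer it rose by 0.54 ± 0.08 (adjusted p = 0.000304), and it rose by 0.55 ± 0.08 in shAgo2 (adjusted p = 0.000235), with both calls lost without wt 1 (adjusted p of 0.00846 and 0.00689). Neither shDicer nor shAgo2 overlapped with wt. MIR3936HG was at 28.1 and 24.8 CPM in wt, 35.4 and 35.2 CPM in shDicer, 36.1 and 36.8 CPM in shAgo2, and 25.1 and 28.0 CPM in the libraries labelled shDrosha. In shDicer it rose by 0.42 ± 0.09 (adjusted p = 0.00403), and it rose by 0.46 ± 0.09 in shAgo2 (adjusted p = 0.00186), about as much as its neighbours, whose medians were 0.39 and 0.37. With these taken off, the values were 0.02 (adjusted p = 0.868) and 0.09 (adjusted p = 0.493). The shDicer call was lost without any 1 of the wt, shDicer or shAgo2 libraries (log2 fold change between 0.33 and 0.51). The shAgo2 call was lost without any 1 of the wt or shAgo2 libraries (between 0.37 and 0.55). Both calls were also lost with DESeq2 (adjusted p of 0.0181 and 0.00611), with counts scaled from TPM (adjusted p of 0.0409 and 0.0270) and with the replicate block. Scaling by library size only and the fit of the 2 groups alone ended the shDicer call too. Its MIR3936 hairpin entry was at 21 and 21 counts in wt, 56 and 57 in shDicer, 68 and 62 in shAgo2, and 27 and 27 in the libraries labelled shDrosha. This entry was higher in shDicer and shAgo2 by more than the host gene.

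MIR646HG was at 51.6 and 53.3 CPM in wt chromatin RNA, 67.1 and 70.3 CPM in shDicer, 57.2 and 57.3 CPM in shAgo2, and 57.0 and 55.3 CPM in the libraries labelled shDrosha. It rose by 0.39 ± 0.07 in shDicer (adjusted p = 0.00118), while its neighbours had a median of -0.43, and the call was lost without either wt library or shDicer 2 (adjusted p between 0.0083 and 0.0223). MIR1302-9HG, which shares 35.5% of its 31-base sequences with other genes, was at 151 and 173 CPM in wt, 122 and 127 CPM in shDicer, 113 and 109 CPM in shAgo2, and 178 and 154 CPM in the libraries labelled shDrosha. It fell by 0.55 ± 0.09 in shAgo2 (adjusted p = 0.000485), a call lost without wt 2 or either shAgo2 library (adjusted p between 0.0059 and 0.0109). The shAgo2 samples did not overlap with wt, and the libraries labelled shDrosha did.

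MIR762HG and MIR600HG lie in regions that were lower as a whole. MIR762HG was at 20.3 and 17.9 CPM in wt chromatin RNA, 13.2 and 11.4 CPM in shDicer, 12.4 and 12.8 CPM in shAgo2, and 18.2 and 17.5 CPM in the libraries labelled shDrosha. In shDicer it fell by 0.64 ± 0.11 (adjusted p = 0.000844), and it fell by 0.60 ± 0.11 in shAgo2 (adjusted p = 0.00107). These calls were lost without wt 1 or shDicer 2 (adjusted p of 0.0157 and 0.00859) and without wt 1 or either shAgo2 library (adjusted p between 0.0107 and 0.0191). Its neighbours had medians of -0.55 and -0.70. MIR600HG was at 79.6 and 88.0 CPM in wt, 68.0 and 68.3 CPM in shDicer, 63.0 and 65.3 CPM in shAgo2, and 93.6 and 89.01 CPM in the libraries labelled shDrosha. It fell by 0.39 ± 0.08 in shAgo2 (adjusted p = 0.00168), where its neighbours had a median of -0.50, and the call was lost without any of the wt or shAgo2 libraries (adjusted p between 0.00502 and 0.0314). With the neighbour median taken off, MIR762HG came to -0.09 (adjusted p = 0.605) in shDicer, and the shAgo2 values turned to 0.12 (adjusted p = 0.258) for MIR600HG and 0.095 (adjusted p = 0.548) for MIR762HG.

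The same hosts had low levels in mRNA-seq, where they missed the threshold. MIR600HG was at 5.03, 5.25 and 5.22 CPM in wt and at 7.05, 8.25 and 6.98 CPM in shDicer (0.52 ± 0.16, adjusted p = 0.0145), above wt in every sample and so opposite to its chromatin RNA. MIR9-1HG was at 2.67, 3.74 and 3.48 CPM in wt and at 1.72, 2.12 and 1.55 CPM in shDicer (-0.87 ± 0.25, adjusted p = 0.0114), below wt in every sample. MIR762HG was at 2.19, 2.85 and 3.07 CPM in wt and at 1.72, 1.97 and 1.79 CPM in shDicer (-0.56 ± 0.25, adjusted p = 0.0755). For these 3 the wt and shDicer samples did not overlap. MIR3936HG was at 0.243, 0.800 and 0.409 CPM in wt and at 1.25, 0.908 and 0.954 CPM in shDicer (1.09 ± 0.44, adjusted p = 0.0548), also without overlap, at counts near the floor. MIR29B2CHG was at 6.57, 5.07 and 4.50 CPM in wt and at 5.56, 6.73 and 4.95 CPM in shDicer. MIRLET7IHG was at 5.92, 4.09 and 5.32 CPM in wt and at 2.90, 5.30 and 4.95 CPM in shDicer. In both the groups overlapped, as they did for MIR130AHG (1.07 to 1.91 CPM), MIR181A1HG (1.69 to 3.25 CPM) and MIR646HG (1.66 to 2.19 CPM).

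A further 3 hosts passed a test at low counts. MIR210HG, the host of the hypoxia-induced miR-210, had 28 and 53 counts in wt chromatin RNA, 23 and 17 in shDicer, 17 and 11 in shAgo2, and 13 and 16 in the libraries labelled shDrosha. The wt samples differed from each other, and each wt count was above all the others. It fell in shAgo2 by 1.77 ± 0.38 (adjusted p = 0.00286), a call lost without wt 2 or either shAgo2 library (adjusted p between 0.0150 and 0.0493), and in the libraries labelled shDrosha by 1.62 ± 0.38 (adjusted p = 0.0422), a call lost without any of the wt, shAgo2 or shDrosha libraries (adjusted p between 0.0572 and 0.298). MIR124-1HG, a host of the neuronal miR-124, had 15 and 22 counts in wt, between 13 and 24 in shDicer and shAgo2, and 46 and 55 in the libraries labelled shDrosha. It rose there by 1.31 ± 0.28 (adjusted p = 0.0304), again a call lost without any of the wt, shAgo2 or shDrosha libraries (adjusted p between 0.0559 and 0.266). MIR378D2HG had 9 and 16 counts in wt, 55 and 50 in shDicer, 34 and 20 in shAgo2, and 13 and 13 in the libraries labelled shDrosha. It rose in shDicer by 1.85 ± 0.33 (adjusted p = 0.00091), a call lost without wt 1 or shDicer 1, where the value was 1.45 and 1.78 (adjusted p of 0.0162 and 0.00566), and with DESeq2 (adjusted p = 0.00722).

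Where a host lies in a region that moved as a whole, its own value was set against the median of its 50 nearest tested genes. MIR17HG and MIR4458HG in chromatin RNA, MIR222HG, MIR99AHG and MIR4435-2HG moved while their neighbours had median log2 fold changes between -0.43 and 0.26. MIRLET7A1HG, MIR219A2HG, MIR762HG and MIR600HG lay where the medians were between -0.50 and -0.82. Around MIR34AHG the medians were between 0.50 and 0.71, and around MIR17HG in mRNA-seq the median was -0.94. With the neighbour median taken off every gene, 9 hosts rose and 8 fell in shDicer chromatin RNA, of which 7 and 6 were also called without it, and 7 rose and 8 fell in shAgo2, of which 5 and 6 were. The share of all genes called with the median taken off was not computed, so these counts cannot be set against it.

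**Figure D4:**
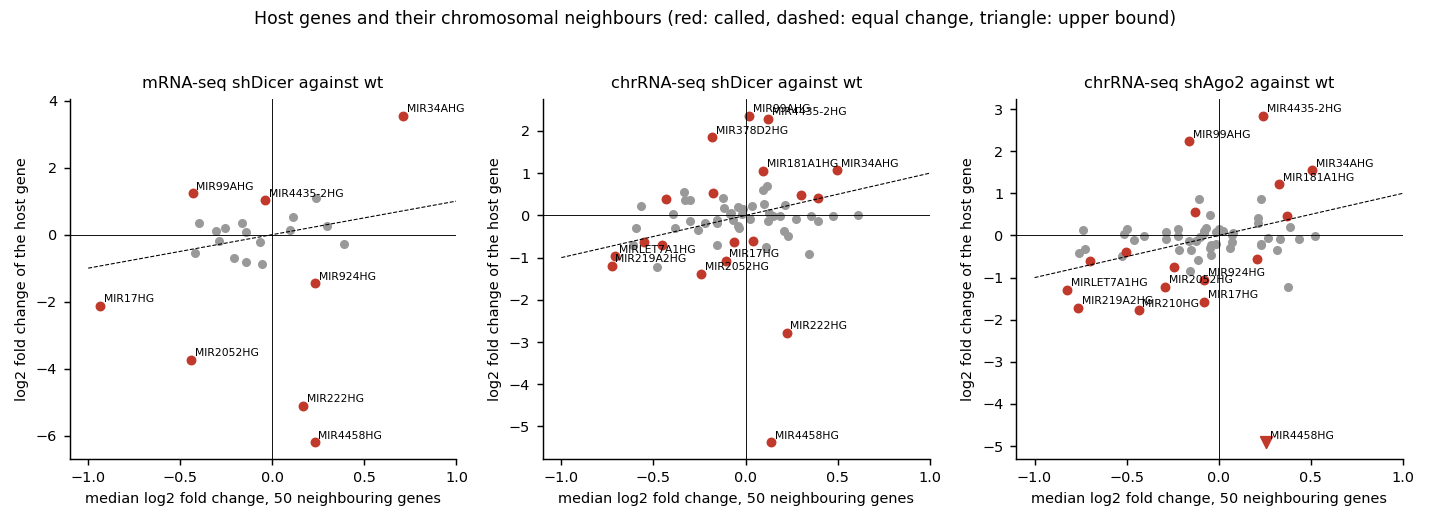
Log2 fold change of each host gene tested (vertical) against the median of its 50 nearest tested genes (horizontal) in shDicer mRNA-seq and in shDicer and shAgo2 chrRNA-seq. MIR222HG in shDicer lies far below a neighbour median of 0.22 in chromatin RNA, and MIRLET7A1HG lies near its neighbours at -0.71.

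The shDicer and shAgo2 chromatin RNA samples were also compared with each other. MIR222HG and MIR4435-2HG were lower in shDicer than in shAgo2, so 2 of 64 hosts were called lower, where 1.34% of all genes were (3.12% of hosts and 2.71% of all genes called in either direction). No host was called higher by edgeR, where 1.37% of all genes were, although 7 had an unadjusted p under 0.05, and DESeq2 called 0 as well. The value for MIR4435-2HG was -0.56 ± 0.08 (adjusted p = 0.000963) and was lost without shDicer 1 or either shAgo2 library (adjusted p between 0.00641 and 0.0287) and with the neighbour median taken off (adjusted p = 0.00697). MIR34AHG (-0.48 ± 0.10, adjusted p = 0.00898), MIR17HG (0.50 ± 0.13, adjusted p = 0.0347) and MIR924HG (0.44 ± 0.11, adjusted p = 0.0249) did not pass the threshold of 0.005.

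Another 27 hosts were well expressed and passed no test. MIR663AHG was the highest of them, with values from 15017.5 to 23990 CPM in chromatin RNA. Its samples spread as widely within a group as between groups, at 15390.5 and 22420.2 CPM in shDicer and 23416 and 15017.5 CPM in the libraries labelled shDrosha, and its log2 fold change was -0.11 ± 0.20 in shDicer and 0.16 ± 0.20 in shAgo2. In mRNA-seq it ranged from 10.6 to 77.7 CPM within the shDicer samples. Its MIR663A hairpin entry had between 21289 and 32360 counts in each chrRNA-seq sample. MIR155HG, whose microRNA acts in activated immune cells, was at 7.05 and 6.95 CPM in wt chromatin RNA and at 9.71 and 9.64 CPM in the libraries labelled shDrosha (0.47 ± 0.12, adjusted p = 0.0608). MIR503HG, the host of miR-503, which represses cell cycle genes, ranged from 19.5 to 27.9 CPM, with values of -0.34 ± 0.10 in shDicer (adjusted p = 0.0223) and -0.35 ± 0.10 in shAgo2 (adjusted p = 0.0175). MIR31HG ranged from 3.68 to 5.66 CPM, with 0.55 ± 0.16 in shDicer (adjusted p = 0.0172).

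The rest of these hosts, by their range over the chrRNA-seq samples, fall into a higher and a lower set. Between 10 and 30 CPM in wt were MIR194-2HG (22.4 to 27.9), MIR23AHG (19.3 to 24.2), MIR122HG (18.04 to 18.9), MIR133A1HG (13.7 to 21.8), MIR4453HG (13.0 to 21.8), MIR3150BHG (9.28 to 12.7), MIR548XHG (10.04 to 12.8) and MIR4300HG (8.95 to 10.6). MIR122HG, whose microRNA is known from liver, was the steadiest of the 8. Below 10 CPM in wt were MIR4733HG, MIR205HG, MIR4290HG, MIR497HG, MIR137HG, MIR3677HG, MIR3667HG, MIR202HG, MIR5689HG, MIR193BHG, MIR3171HG and MIR4713HG, all between 2.84 and 10.5 CPM. Of these, MIR4713HG shares 34.3% and MIR3677HG 22.5% of its 31-base sequences with other genes.

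The remaining hosts were low. MIR124-2HG, MIR223HG and MIR493HG had no count in any of the 14 samples, which allows a level of up to 3 counts in a library. In mRNA-seq, 19 hosts had no count. Counts this low leave even large changes undetectable at this depth.

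Genes of the microRNA pathway and other hosts were tested in the same fits. Of 26 pathway genes, 2 rose and 5 fell among 25 tested in shDicer mRNA-seq, 1 rose and 10 fell in shDicer chromatin RNA, and 2 rose and 12 fell in shAgo2, with medians on the log2 scale of -0.16, -0.24 and -0.31. The list includes DICER1, AGO2 and DROSHA, so a fall of a gene that its own shRNA targets counts among these. Over all genes tested, 15.6% rose and 14.2% fell in shDicer mRNA-seq, 11% and 10.5% in shDicer chromatin RNA, 12.5% and 12.1% in shAgo2, and 1.19% and 2.18% in the libraries labelled shDrosha. Besides the targets, TUT7, a uridyltransferase that marks let-7 precursors, fell by 1.01 ± 0.09 (adjusted p = 5.57e-06) in shDicer and 0.77 ± 0.09 (adjusted p = 3.52e-05) in shAgo2 chromatin RNA, and DDX17, a Drosha cofactor, by 1.01 ± 0.11 in both (adjusted p = 1.94e-05 and 1.66e-05). ZSWIM8, which directs the decay of microRNAs bound to certain targets, rose by 1.05 ± 0.14 in shDicer mRNA-seq (adjusted p = 9.94e-05) and fell by 0.65 ± 0.10 in shAgo2 chromatin RNA (adjusted p = 0.000191). Of 10 non-coding hosts with other names, 8 were tested in chromatin RNA, where 3 rose in shDicer and 4 in shAgo2, CYTOR the most, and LINC00461 rose by 1.49 ± 0.16 in shAgo2 (adjusted p = 1.71e-05). CYTOR alone of the 8 rose in the libraries labelled shDrosha. In mRNA-seq 5 of the list were tested, of which CYTOR rose and DLEU2 fell. DLEU2, the host of miR-15a and miR-16-1, fell by 0.97 ± 0.11 in shDicer mRNA-seq (adjusted p = 3e-05). Of 34 protein-coding hosts, 32 were tested in chromatin RNA, where 5 rose and 6 fell in shDicer and 4 rose and 7 fell in shAgo2, with medians of 0.01 and -0.05. In mRNA-seq, 2 of 29 rose and 3 fell. Of the 32, 2 fell in the libraries labelled shDrosha, MCM7 by 0.49 ± 0.12 (adjusted p = 0.0467) and SLIT2 by 0.74 ± 0.08 (adjusted p = 0.0018). SLIT3, the host of miR-218-2, rose by 1.67 ± 0.11 (adjusted p = 3.2e-07) in shDicer and 0.79 ± 0.11 (adjusted p = 0.000117) in shAgo2, and TRPM3, the host of miR-204, by 1.20 ± 0.14 (adjusted p = 3.25e-05) and 1.51 ± 0.14 (adjusted p = 3.88e-06).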

How the data were processed

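RNA was measured in 14 of 20 samples, by mRNA-seq (3 wt, 3 shDicer) and chrRNA-seq (2 each of wt, shDicer, shAgo2 and shDrosha). The 6 small RNA samples were not analysed here. The labels name polyA RNA for mRNA-seq, while the methods describe ribosomal depletion. The authors ran kallisto 0.43.1 on cDNA and non-coding RNA of Ensembl 89 and deposited, per transcript, an unnormalised estimated count and a TPM value, which is scaled by effective length to 1 total per sample. How reads were trimmed is not given in the sources used here. A read shared by transcripts is divided among them, so values of near-identical genes and transcripts are uncertain.

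Of 217082 transcripts, 193697 (89.2%) were found in GENCODE 44 (GRCh38) and held between 93.4 and 94.8% of counts. Estimated counts were summed per gene and rounded. edgeR 4.0.16 (R 4.3.3) was run on all genes with filterByExpr, TMM and the quasi-likelihood test, which tested 15090 (mRNA-seq) and 32874 genes (chrRNA-seq), and p-values adjusted by Benjamini-Hochberg. Thresholds were an adjusted p of 0.001 (mRNA-seq), 0.005 (shDicer and shAgo2 chrRNA-seq) and 0.05 (shDrosha chrRNA-seq), which follow the study. DESeq2 1.42.0, other normalisations, no filter, counts scaled from TPM, a minimum log2 fold change of 1, a replicate block, the neighbour median as offset, fits of the 2 groups alone and leaving out each library were the alternatives. In simulated data, edgeR recovered 200 of 200 genes changed by 2 on the log2 scale with 0 false calls in mRNA-seq, and 200 of 200 with 2 false calls in chrRNA-seq. The changed genes were drawn from well-counted genes, and the same spread was set for every gene. Smaller changes and lower counts, as in many of the host calls, were not simulated.

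Normalised CPM is edgeR's cpm over the tested genes, after TMM scaling. Intervals cover counting error only. Hairpin entries, transcript shares and TPM are given without a test. The members, gene lists and tests were chosen with earlier results of these data known. Hosts called in at least 1 comparison with wt are given for every sample where their mean log2 CPM reached 1. Uncalled hosts are named with their levels where it reached 2, and the others by count. From each list, up to 4 called genes are named where it reached 3. Low-level called hosts were named after their values were seen. To look for pairing, each gene's group mean was subtracted and these deviations were correlated between samples of different groups. In mRNA-seq, samples with the same replicate number gave 0.077, 0.053 and 0.151. Those with different numbers gave lower values, between -0.139 and 0.047. All were weak, so the numbers were not taken to pair samples, and the replicate block served as an alternative.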

Additional observations from a re-analysis of the deposited data

Results flagged for a closer look

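The change of some hosts against wt differed between groups. The difference between shDicer and shAgo2 in chromatin RNA was tested and passed for MIR222HG, at -2.62 on the log2 scale with both shDicer samples below both shAgo2 samples, and for MIR4435-2HG, at -0.56.

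For 4 other hosts with a call in at least 1 of the 2 comparisons concerned, the samples of 2 groups lay wholly on opposite sides of wt. These differences were not tested. Lying wholly apart from wt was common with so few samples. By comparison, between 24.5 and 36.9% of all genes tested lay wholly above wt, and between 24.6 and 36.0% wholly below. The share of all genes that lay on opposite sides was not computed. On the log2 scale, MIR2052HG changed by -3.74 in shDicer mRNA-seq, -1.38 in shDicer and -1.22 in shAgo2 chromatin RNA, and 0.18 in the libraries labelled shDrosha. MIR924HG had -1.45, -0.61 and -1.05 in these comparisons and 0.24 in the libraries labelled shDrosha. MIR600HG had 0.52 in shDicer mRNA-seq, -0.39 in shAgo2 chromatin RNA and 0.12 in the libraries labelled shDrosha. Its mRNA-seq value was not called, and its shAgo2 call was lost without any of the wt or shAgo2 libraries. The mRNA-seq value of MIR2052HG rests on 46 counts in wt and 4 in shDicer. MIRLET7IHG had -0.21 in shAgo2 and 0.51 in the libraries labelled shDrosha. DROSHA was not lower in those libraries.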

How the results depend on the processing

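Of the host calls, 6 of 8 in shDicer mRNA-seq, 8 of 19 in shDicer chromatin RNA, 8 of 17 in shAgo2, 0 of 5 in the libraries labelled shDrosha and 1 of 2 between shDicer and shAgo2 kept their direction and their side of the threshold under every alternative run. The minimum log2 fold change of 1 uses the main fit and removes any smaller call by definition. It alone ended the calls of MIR4435-2HG in the libraries labelled shDrosha (0.96) and of MIR9-1HG in shAgo2 (-0.75). The losses given for single hosts above do not name every setting. For the counts of hosts called under the alternatives, the matching shares of all genes were not computed. Over all values recomputed for called hosts, 755 kept both, 134 kept the direction and not the call, and 2 reversed, both with the neighbour median as offset in shAgo2, MIR600HG at 0.12 and MIR762HG at 0.095. A minimum log2 fold change of 1 left 5 higher and 5 lower in shDicer chromatin RNA, 7 lower in shAgo2, 1 higher in the libraries labelled shDrosha and 1 lower between shDicer and shAgo2. In the libraries labelled shDrosha, 1 host was higher with counts scaled from TPM or a threshold of 0.005, and 0 were lower under these settings, with DESeq2, with the replicate block or with the neighbour offset. Between shDicer and shAgo2, 1 was lower with the neighbour offset, and 1 was higher in the fit of the 2 groups alone and in the block with the shDrosha numbers crossed. The cause was not tested.

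Leaving out 1 library gave 2 to 3 higher and 4 to 5 lower hosts in shDicer mRNA-seq, 5 to 9 and 5 to 12 in shDicer chromatin RNA (both fewest without wt 1), 4 to 7 and 7 to 11 in shAgo2, 1 to 4 and 0 to 1 in the libraries labelled shDrosha, and 0 to 1 and 1 to 2 between shDicer and shAgo2. A lone sample left in a group was assumed to vary like the others. With the replicate block, 3 hosts were higher and 4 lower in shDicer mRNA-seq, 8 and 10 in shDicer chromatin RNA, 5 and 10 in shAgo2, 3 and 0 in the libraries labelled shDrosha, and 0 and 2 between shDicer and shAgo2. For same-numbered samples of the chrRNA-seq groups, the deviations from the group mean correlated between -0.25 and 0.09. With 2 samples per group, differently numbered samples must give the same values with the sign reversed. The numbers were not taken as a pairing. Hosts at or under 3 counts in a library could not be followed at this depth.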
